A study of Mus musculus with 16 samples.

Results

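The interferon-stimulated genes described here are 37 named genes of the type I and type II interferon response, listed by gene name, with earlier results of these data known. All 37 were present among the 25719 genes of the deposited table. Whole-liver RNA was sequenced from 16 mice, 1 library per mouse, in 4 groups that differed in genotype and diet. The 4 WT controls were C57BL6J mice on a normal chow diet (NCD), and 5 further WT mice received the steatosis-steatohepatitis diet (SSD), which is rich in fat, fructose and cholesterol. Klrk1-/- mice lack the gene for the activating receptor NKG2D in every cell, so no cell type can be singled out in this model, and 4 of them were NCD-fed and 3 SSD-fed. Their strain label reads NKG2D and names no background, so strain and genotype cannot be told apart. By the study's methods the animals were males aged 8 to 12 weeks, and the diets were given for 3 weeks. The comparisons ask how each diet and the loss of NKG2D changed these genes early in fatty liver disease.

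Interferons are cytokines that cells release when they sense nucleic acids of a virus or danger signals, and in the liver hepatocytes, Kupffer cells and endothelium can all answer them. Type I interferons bind IFNAR1 and IFNAR2 and activate a complex that holds STAT2 and IRF9 and binds a DNA element called ISRE. Interferon gamma, made mainly by NK and T cells, binds IFNGR1 and IFNGR2 and acts through an element called GAS. The induced genes encode sensors of viral RNA, enzymes and GTPases that restrict viruses and intracellular bacteria, and proteins that damp the response.

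Since members moved in opposite directions, the DNA in front of the start of several of them is shown first, on the strand of the gene, from RefSeq's promoter table (made on GRCm38.p6) with positions found by exact match in GRCm39. The table holds windows of 300 bases, 250 before the start and 50 after it, and 28 of the 37 members have an entry. ISRE was searched as GAAA, any 2 bases and GAAA again, or on the other strand TTTC, any 2 bases and TTTC. GAS was searched as TTC, any 3 bases and GAA, which reads the same on both strands. Overlapping matches were counted. The letters of ISRE were found in 17 of the 28 members (60.7%) and in 3.99% of the 27025 genes of the table. GAS letters were found in 9 of the 28 members (32.1%) and in 9.55% of all genes. Such a match is a description of the window and does not show that a factor binds there.

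Gbp2, Gbp3 and Trim30a are shown as the members that rose on SSD in WT mice and have ISRE letters in their window, and Irf8 as one with GAS letters. Ifit2, which also rose, has GAS letters only, and Oasl2 has neither. Capitals mark ISRE letters in the first 3 and GAS letters in Irf8. The stretches lie at chr3:142326273-142326392, chr3:142265685-142265804, chr7:104114401-104114520 and chr8:121462897-121463016, on the plus strand except for Trim30a.
Gbp2: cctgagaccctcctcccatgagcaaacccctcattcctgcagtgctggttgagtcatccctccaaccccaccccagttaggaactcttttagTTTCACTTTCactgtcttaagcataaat
Gbp3: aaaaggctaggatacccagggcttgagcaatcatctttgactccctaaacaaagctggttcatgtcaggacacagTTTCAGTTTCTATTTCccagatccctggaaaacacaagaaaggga
Trim30a: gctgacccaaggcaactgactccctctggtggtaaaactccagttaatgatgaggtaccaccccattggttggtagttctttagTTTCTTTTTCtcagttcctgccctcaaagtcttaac
Irf8: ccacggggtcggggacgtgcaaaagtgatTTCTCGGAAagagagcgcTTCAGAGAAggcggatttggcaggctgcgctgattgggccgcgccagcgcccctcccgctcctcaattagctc
Gbp2 held 1 match, from 59 to 50 bases before the RefSeq start, which lies 61 bases inside the gene as the GRCm39 annotation draws it, so the match falls at the very start of that gene model. In Gbp3 a pair of matches overlapped between 45 and 30 bases before the start, and Trim30a had 1 at 36 to 27 bases. The 2 GAS matches of Irf8 lay 171 to 163 and 153 to 145 bases before the start.

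Stat2, Isg15 and Ifit1 are shown as members with lower RNA in SSD-fed than in NCD-fed Klrk1-/- mice, again with ISRE letters in capitals. They lie at chr10:128106117-128106236 (plus strand), chr4:156285276-156285395 (minus strand) and chr19:34618169-34618288 (plus strand).
Stat2: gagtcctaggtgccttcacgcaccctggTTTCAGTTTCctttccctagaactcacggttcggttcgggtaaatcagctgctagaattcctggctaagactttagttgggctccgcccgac
Isg15: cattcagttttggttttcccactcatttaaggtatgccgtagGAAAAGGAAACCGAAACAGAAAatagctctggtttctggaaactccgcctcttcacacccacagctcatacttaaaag
Ifit1: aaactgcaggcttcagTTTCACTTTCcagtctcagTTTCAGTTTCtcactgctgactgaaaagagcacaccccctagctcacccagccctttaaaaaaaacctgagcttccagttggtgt
Isg15 carried 3 overlapping matches between 78 and 57 bases before the start, Ifit1 had 2 matches and Stat2 had 1. Of the members with an entry, 3 of the 6 called higher and 1 of the 3 called lower on SSD in WT mice had ISRE letters in their window. Among those called lower in Klrk1-/- mice it was 4 of the 5 on SSD, and 0 of the 2 that were lower than in WT mice on NCD.

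Oasl1 and Oasl2 are neighbouring genes of 1 family on chromosome 5, with 11003 bases between them, and their RNA moved in opposite directions in WT mice. Their stretches lie at chr5:115061179-115061298 and chr5:115034875-115034994, both on the plus strand. The searched letters of ISRE and GAS are not in either window, so nothing is in capitals.
Oasl1: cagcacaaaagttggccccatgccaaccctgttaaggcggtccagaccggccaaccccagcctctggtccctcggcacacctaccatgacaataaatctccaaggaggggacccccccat
Oasl2: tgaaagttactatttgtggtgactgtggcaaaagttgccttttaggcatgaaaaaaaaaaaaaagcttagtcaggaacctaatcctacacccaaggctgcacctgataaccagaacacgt

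The libraries held 19892025 to 28936707 reads on genes, and every member had at least 23 reads in every mouse. Values are the authors' normalized counts, that is reads per gene divided by 1 factor per mouse. Klrk1 was between 20.1 and 71.1 normalized counts in the 9 WT mice and between 0.966 and 8.71 in the 7 Klrk1-/- mice, so all libraries fitted their genotype label. SSD-fed WT mouse 1 stood apart over all genes, with a chi-square per gene of 73.2 to 101 against the other 4 mice of its group and 18.8 to 36.1 among those 4. Hepatocyte markers dominated all libraries, as the whole-liver label says, with Alb, Apoa1, Ttr, Cps1 and Cyp2e1 summing to 2217295 to 2513720 normalized counts in NCD-fed and 1442984 to 1861110 in SSD-fed WT mice. In Klrk1-/- mice the hepatocyte sums were 2138815 to 2842986 on NCD and 1981901 to 2145270 on SSD, so the diets did not overlap in WT mice and did in Klrk1-/- mice. The summed level of 5 Kupffer cell markers was 3393 to 3696 in NCD-fed WT mice, 4940 to 10737 in SSD-fed WT mice, 2940 to 3642 in NCD-fed Klrk1-/- mice and 3666 to 4750 in SSD-fed Klrk1-/- mice. SSD-fed WT mice 1 and 4 had the highest sums. For 8 markers of monocytes and macrophages the ranges were 2180 to 2869, 2982 to 8723, 1993 to 2323 and 2277 to 2655 in the same order. The 4 neutrophil markers, of which Ly6g was at 0 in every mouse, summed to 21.8 to 107. In bulk liver RNA, fewer cells of a type and less RNA per cell cannot be told apart.

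Per kilobase of gene length, the members spanned a wide range of levels in NCD-fed WT livers. Ifitm3, a membrane protein that blocks viral fusion, was highest at 19540 normalized counts per kilobase, followed by the virion tether Bst2 at 7210 and the GTPase Iigp1 at 2620. Stat2 came next at 1636. Ifit3b and Ifit2, members of a family of RNA-binding proteins, were lowest at 22.2 and 25. Within a gene, values below are normalized counts and not per length.

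**Figure D1:**
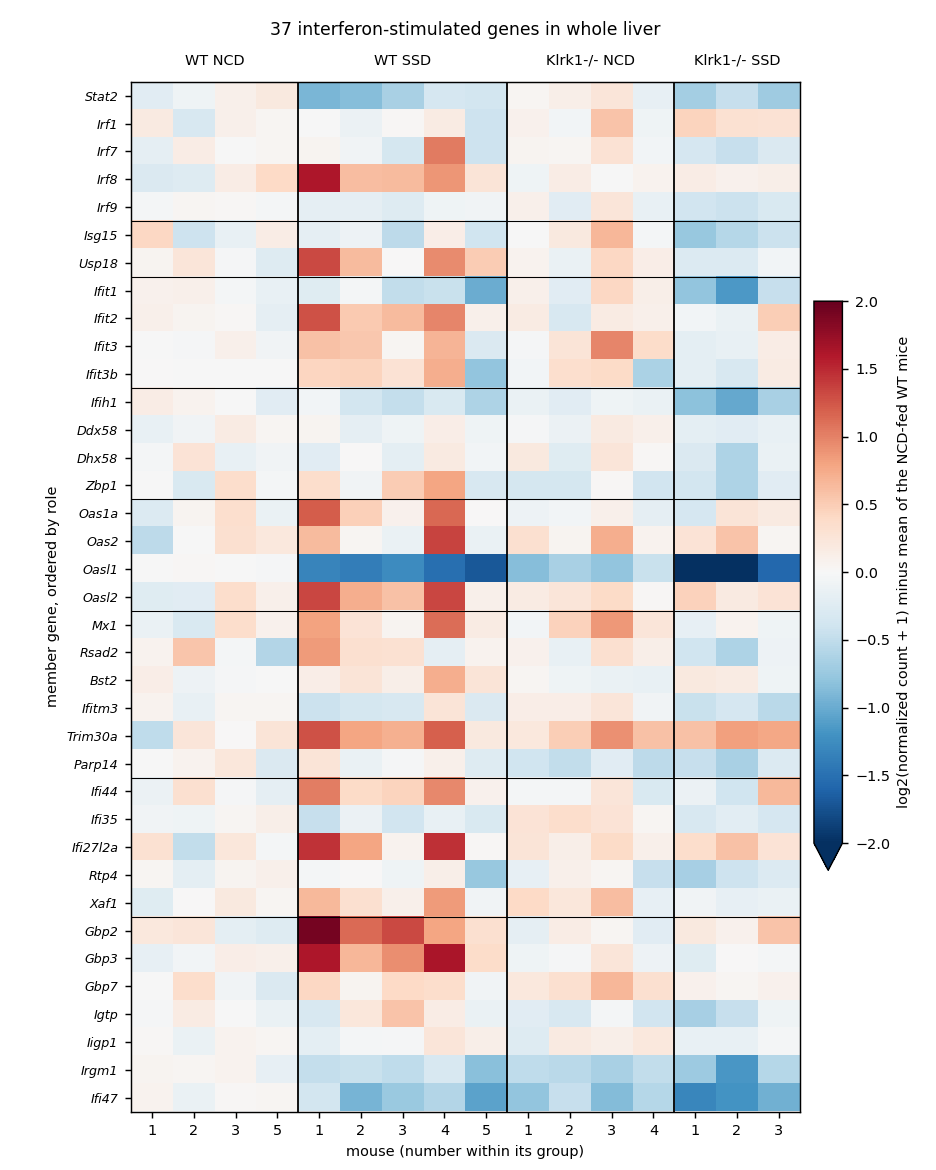
Heat map of the 37 members (rows, ordered by role) in the 16 mice (columns, by group). Colour is log2(normalized count + 1) minus the mean of the NCD-fed WT mice. Oasl1 is blue in all SSD-fed mice, the reddest cell is Gbp2 in SSD-fed WT mouse 1, and SSD-fed WT mice 1 and 4 are redder than mouse 5.

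The first comparison was SSD against NCD in WT mice. Calls rest on limma's trend test of log2(normalized count + 1), with p-values adjusted by Benjamini-Hochberg over all genes tested. A call needs an adjusted p below 0.05 together with more than a 1.5-fold difference, and SE stands for the standard error of a log2 fold change. Of the 37 members, 7 rose and 3 fell on SSD. That is 27% of the members, where 19.3% of all genes tested were called (11.9% higher and 7.32% lower). The median log2 fold change was 0.22 over the members and -0.00 over all genes. The genes that rose were the transcription factor Irf8, the ISG15 protease Usp18, Ifit2, Oasl2, Trim30a and the guanylate-binding proteins Gbp2 and Gbp3. Those that fell were Stat2, Oasl1 and the GTPase Ifi47. The other 27 lay between -0.52 (Irgm1) and 0.76 (Ifi27l2a). Without SSD-fed mouse 1, which stood apart, 5 members were called higher and 2 lower. Leaving out each mouse in turn gave 3 to 10 higher and 2 to 3 lower, with the fewest rises without NCD-fed mouse 1. The shares of all genes called in these runs are not given, so a change particular to the members cannot be told. With every mouse scaled to the same total, the median of all genes moved to 0.34, 15 members were called higher and 1 lower (26.5% and 3.1% of all genes), and Stat2 and Ifi47 were no longer called.

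Among the transcription factors, Stat2 and Irf8 changed in opposite directions. Stat2 (chromosome 10, 128106428 to 128128718 on GRCm39) was at 2489, 2720, 3126 and 3336 normalized counts in NCD-fed and at 1537, 1604, 1846, 2295 and 2236 in SSD-fed WT mice. The groups did not overlap, and its log2 fold change was -0.63 (SE 0.14, adjusted p = 0.00471). The call was lost without NCD-fed mouse 5, SSD-fed mouse 1 or SSD-fed mouse 2 (adjusted p between 0.000273 and 0.098 over all alternatives) and under quantile normalization. Irf8 (chromosome 8, 121463097 to 121483433), which directs the development of monocytes and dendritic cells, was at 121, 124, 164 and 196 in NCD-fed mice. On SSD it was at 455, 229, 230, 274 and 177, so 4 of 5 mice were above all controls and mouse 5 was not. It rose by a log2 fold change of 0.80 (SE 0.24, adjusted p = 0.0231), a call lost without NCD-fed mouse 1 or 2 (adjusted p up to 0.0849 over all alternatives). Irf1, Irf7 and Irf9 were not called, with log2 fold changes of -0.07, 0.05 and -0.15. Irf7, the factor that amplifies type I interferon production, was between 731 and 1006 in 4 SSD-fed WT mice and at 1998 in mouse 4.

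Isg15 encodes a ubiquitin-like protein that is attached to other proteins, and Usp18 removes it and also blocks signalling at IFNAR2. Usp18 (chromosome 6, 121222865 to 121247876) was at 172, 197, 163 and 139 in NCD-fed and at 415, 259, 168, 322 and 237 in SSD-fed WT mice. All SSD-fed mice except mouse 3 were above the controls, and the log2 fold change was 0.68 (SE 0.22, adjusted p = 0.0296). Leaving out NCD-fed mouse 1, 3 or 5 or SSD-fed mouse 1 or 4 ended this call (adjusted p up to 0.0803 over all alternatives). Isg15 was not called, at 302 ± 75.5 (SD, n = 4) in NCD-fed and 258 ± 47.1 (SD, n = 5) in SSD-fed WT mice.

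The 4 IFIT genes lie in 1 cluster on chromosome 19, and only Ifit2 was called. It was at 60.3, 58.4, 57.4 and 49.7 in NCD-fed mice and at 137, 81.1, 87.6, 112 and 60.4 in SSD-fed WT mice. The groups were apart, but mouse 5 exceeded the highest control by the last digit only. The log2 fold change was 0.70 (SE 0.21, adjusted p = 0.0254), and the call was lost without NCD-fed mouse 3 or 5 or SSD-fed mouse 1 or 4 and under quantile normalization (adjusted p up to 0.0842 over all alternatives). Ifit1 had a log2 fold change of -0.44 and Ifit3 of 0.31, both not called. Ifit3 and Ifit3b share sequence (16.7% and 27.2% of their 100-base stretches), so reads of these copies are uncertain.

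None of the 4 sensors of viral nucleic acids was called in WT mice. Ifih1, the sensor MDA5 of long double-stranded RNA, had a log2 fold change of -0.37 with an adjusted p of 0.0346 but stayed within the fold limit. The RNA sensors Ddx58 and Dhx58 and the Z-nucleic acid sensor Zbp1 were at -0.03, -0.06 and 0.25.

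The OAS family, whose enzymes make the signal that activates RNase L, held the largest fall. Oasl1 (chromosome 5, 115061299 to 115075974), which has lost the enzyme activity and represses translation of Irf7, was at 406, 416, 405 and 403 in NCD-fed WT mice. In SSD-fed WT mice it was at 163, 155, 169, 142 and 125. Every SSD-fed mouse was far below every control, with a log2 fold change of -1.43 (SE 0.11, adjusted p = 2.47e-06). Its neighbour Oasl2 (115034997 to 115050295) was at 103, 104, 156 and 130 on NCD and at 307, 201, 183, 308 and 130 on SSD. Of the SSD-fed mice, 4 of 5 were above all controls, and Oasl2 rose by 0.82 on the log2 scale (SE 0.24, adjusted p = 0.0226). That call was lost without NCD-fed mouse 1 or 2 or SSD-fed mouse 4 (adjusted p up to 0.0857 over all alternatives). Oasl1 overlaps Gm13822 on the other strand, and Isg15, Usp18, Gbp2 and Ifi47 also have such partners. Whether counting used strand is not given in the sources used here, and without strand the reads of such pairs cannot be told apart. Oas1a and Oas2 were not called, at 0.59 and 0.35, and Oas1a shares 9.54% of its 100-base stretches with Oas1g.

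Among the antiviral effectors, Trim30a was called and Mx1, Rsad2, Bst2, Ifitm3 and Parp14 were not. Trim30a (chromosome 7, 104058232 to 104114400) encodes a ubiquitin ligase that restrains Toll-like receptor signalling. It was at 69.9, 118, 100 and 120 on NCD and at 242, 174, 164, 230 and 114 on SSD. Mouse 5 lay among the controls and the other 4 above them, and the log2 fold change was 0.83 (SE 0.23, adjusted p = 0.0149), a call lost without NCD-fed mouse 1 (adjusted p up to 0.0827 over all alternatives). It shares 12.9% of its 100-base stretches with other genes. The other 5 effectors lay between -0.23 for Ifitm3 and 0.48 for Mx1. The further induced proteins Ifi44, Ifi35, Ifi27l2a, Rtp4 and Xaf1 were not called, with Ifi44 at 0.58 (adjusted p = 0.0474) just under the fold limit.

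The guanylate-binding proteins and the immunity-related GTPases, which attack the vacuoles of intracellular parasites, split in direction. Gbp2 (chromosome 3, 142326363 to 142343769) was at 78.4, 80.5, 58.7 and 56.3 on NCD and at 258, 150, 170, 117 and 84.9 on SSD. Gbp3 (142265787 to 142278970) was at 86.8, 93.6, 107 and 105 on NCD and at 301, 155, 187, 306 and 127 on SSD. For both genes all 5 SSD-fed mice were above all 4 controls, with mouse 5 the closest to them. Gbp2 rose by a log2 fold change of 1.10 (SE 0.27, adjusted p = 0.00855). For Gbp3 it was 1.04 (SE 0.24, adjusted p = 0.00687), and both calls held without any single mouse. Ifi47 (chromosome 11, 48967414 to 48987801) was at 796, 685, 768 and 775 on NCD and at 587, 395, 451, 504 and 358 on SSD. Here every SSD-fed mouse was below every control, and the log2 fold change was -0.74 (SE 0.13, adjusted p = 0.00151). Irgm1, on the same chromosome, had a log2 fold change of -0.52 with an adjusted p of 0.00309 and stayed within the fold limit. Gbp7, Igtp and Iigp1 were not called, at 0.23, 0.10 and 0.02.

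**Figure D2:**
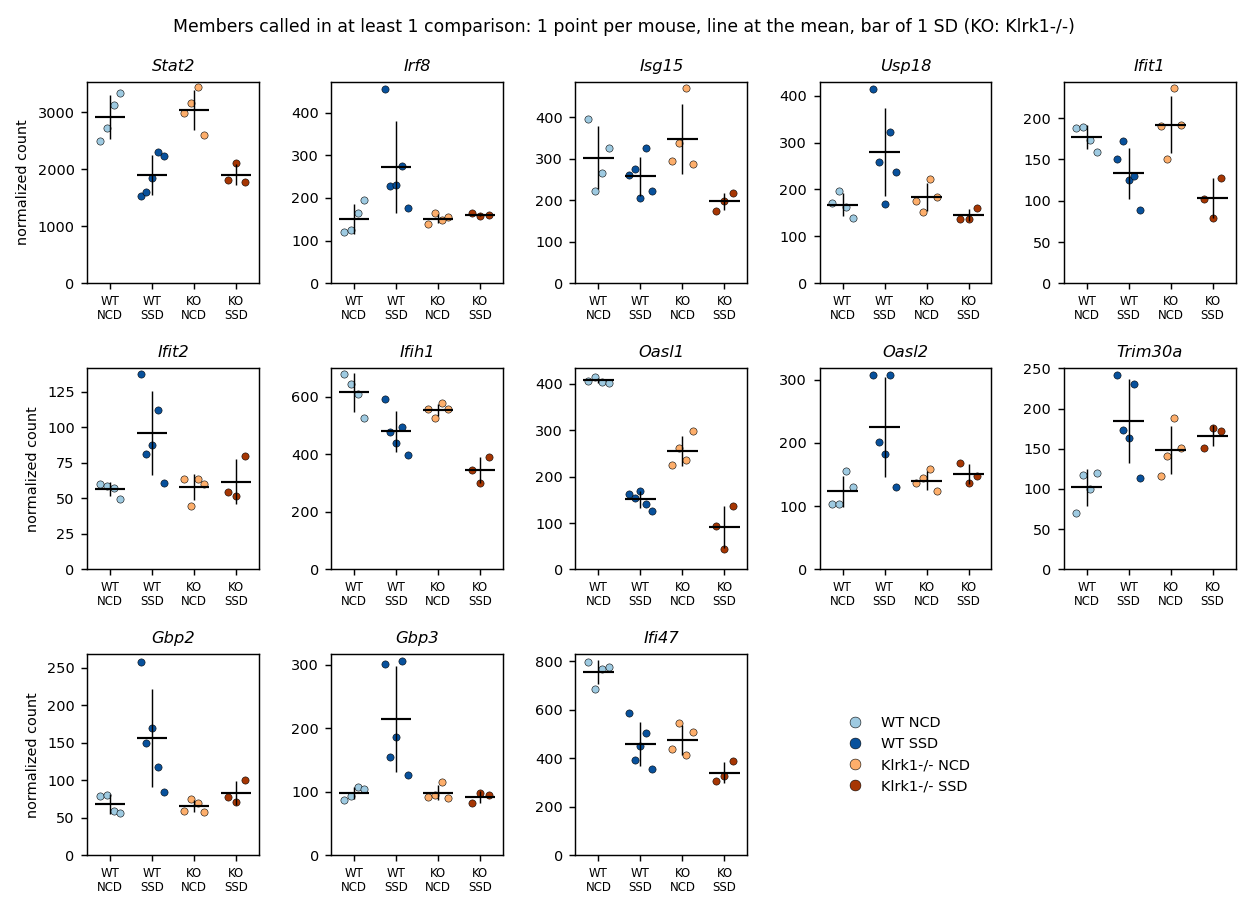
Normalized counts (vertical axes, from 0) of the 13 members called in at least 1 comparison, with 1 point per mouse, the mean as a line and 1 SD as a bar, for the 4 groups. Gbp2 and Gbp3 are above all controls in the 5 SSD-fed WT mice and overlap between the diets in Klrk1-/- mice, whereas Oasl1 is lower on SSD in both genotypes.

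In 3 of the 37 members all SSD-fed WT mice were above all NCD-fed WT mice, and in 6 they were below. Together these are 24.3% of the members, and 29% of all genes tested had diets that did not overlap (13.5% higher and 15.5% lower). The SSD-fed WT mice also differed among themselves. The median coefficient of variation of the members was 24% in this group, with 12.9% for all genes, and 12.4%, 13.8% and 11.6% in NCD-fed WT, NCD-fed Klrk1-/- and SSD-fed Klrk1-/- mice. SSD-fed WT mouse 4 had the highest value for 20 of 37 members (54.1%, with 15.2% of all genes), and mouse 5 had the lowest for 23 (62.2%, with 21% of all genes). Mouse 1 was highest for 32.4% of the members and 32.3% of all genes, and for 18 members mice 1 and 4 were the top pair. These were also the mice with the highest Kupffer cell marker sums, 10737 in mouse 1 and 9033 in mouse 4, against 4940 to 5235 in the other 3. The same held for the monocyte and macrophage markers (8723 and 4976, others 2982 to 3738). It also held for the conventional dendritic cell markers (336 and 340, others 281 to 299). In none of the other marker lists were mice 1 and 4 the top pair. Of the 5 Kupffer cell markers 3 rose on SSD in WT mice, and of the 8 monocyte and macrophage markers 5 rose. The conventional dendritic cell markers Flt3 and Clec9a rose as well, 2 of 3 tested, and the marker sum was 135 to 245 on NCD and 281 to 340 on SSD. Of 4 stellate cell markers, Col1a1 and Lrat rose, and the sum was 3802 to 4849 on NCD and 4567 to 15326 on SSD. Among 5 hepatocyte markers Cps1 fell, and of 4 endothelial markers Pecam1 rose. Of 3 T and NK cell markers tested, Cd4 fell (log2 fold change -2.09, adjusted p = 2.62e-05). The others, Trbc2 and Nkg7, were above 0, at 0.51 and 0.60, and not called. The part of any of these cells in the members' changes was not tested.

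**Figure D3:**
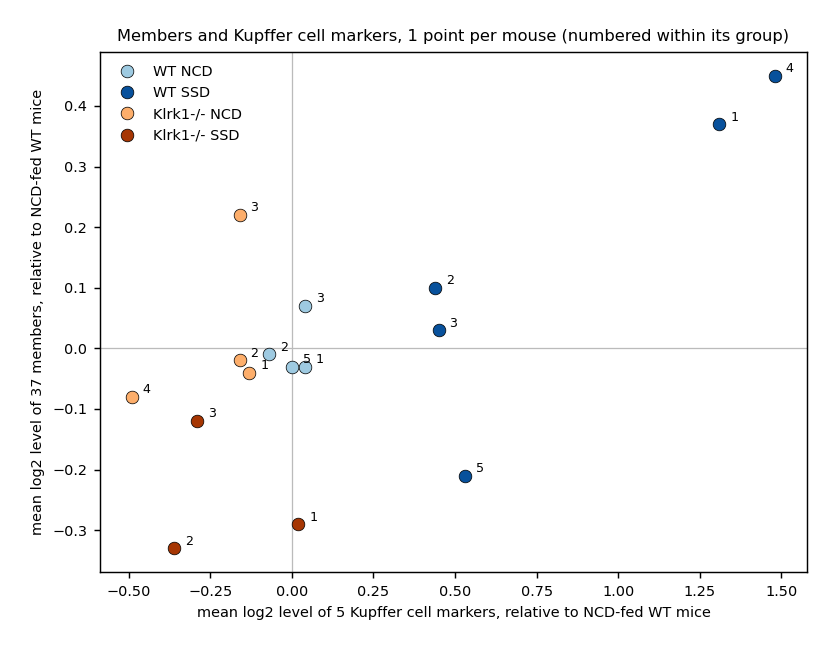
Mean log2 level of the 37 members (vertical axis) against that of 5 Kupffer cell markers (horizontal axis), both relative to the mean of the NCD-fed WT mice, with 1 point per mouse, numbered within its group. SSD-fed WT mice 4 and 1 are at the upper right (0.45 and 0.37 for the members), SSD-fed WT mouse 5 is at -0.21, and the 3 SSD-fed Klrk1-/- mice are between -0.33 and -0.12.

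In Klrk1-/- mice, no member rose on SSD and 5 fell. The share called was 13.5%, and 13.1% of all genes tested were called (6.54% higher and 6.6% lower). The median log2 fold change of the members was -0.27, with -0.00 for all genes. The 5 were Stat2, Isg15, Ifit1, Ifih1 and Oasl1. The other 32 lay between -0.55 (Ifitm3) and 0.33 (Gbp2). Scaling to the same total moved the median of all genes to 0.25 and that of the members to -0.01, and 1 member, Gbp2, was then called higher and 2 lower (16.5% and 3.71% of all genes). Of the cell markers, the hepatocyte genes Cps1 and Apoa1 and the T cell gene Cd4 (log2 fold change -1.92) fell in this comparison. The other T and NK cell markers tested, Trbc2, Gzma, Cd3e and Nkg7, were above 0 (0.68, 0.69, 0.47 and 0.38) and not called. Cd5l, Itgax and Lrat, of Kupffer cells, macrophages and stellate cells, rose. Of the 5 Kupffer cell markers 3 were above 0, with a median of 0.04, and Marco and Timd4 were at -0.63 and -0.13. The part of these cells in the members' fall was not tested. An exact permutation test of 3 against 4 mice cannot go below 0.0571, so single members rest on limma here.

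Stat2 was at 2985, 3153, 3434 and 2594 normalized counts in NCD-fed and at 1819, 2114 and 1773 in SSD-fed Klrk1-/- mice. The diets did not overlap, and the log2 fold change was -0.67 (SE 0.10, adjusted p = 0.000643), next to -0.63 in WT mice. Isg15 (chromosome 4, 156283912 to 156285253) was at 295, 338, 470 and 287 on NCD and at 175, 198 and 218 on SSD. It fell by 0.79 on the log2 scale (SE 0.16, adjusted p = 0.00386), where WT mice had a value of -0.21. Ifit1 (chromosome 19, 34618271 to 34627409), which binds viral RNA that lacks a host cap, was at 190, 151, 236 and 192 on NCD and at 102, 79.5 and 128 on SSD. Its log2 fold change was -0.90 (SE 0.18, adjusted p = 0.00366).

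Ifih1 (chromosome 2, 62426142 to 62476599) was at 557, 525, 577 and 556 in NCD-fed and at 347, 300 and 392 in SSD-fed Klrk1-/- mice. No SSD-fed mouse reached the lowest control, and the log2 fold change was -0.68 (SE 0.10, adjusted p = 0.000546). Oasl1 again fell furthest. It was at 225, 261, 235 and 299 on NCD and at 92.7, 45 and 137 on SSD, a log2 fold change of -1.60 (SE 0.28, adjusted p = 0.00161). All 5 calls held without any single mouse. Ifit1 and Oasl1 were also called under every alternative that kept the fold limit of 1.5.

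The 7 members that rose on SSD in WT mice were not called in Klrk1-/- mice, but with every mouse scaled to the same total Gbp2 was called higher there too. Gbp2 was at 59.7, 74.7, 69.6 and 57.8 in NCD-fed and at 77.3, 71.5 and 101 in SSD-fed Klrk1-/- mice, with a log2 fold change of 0.33. Gbp3 was at 91.9, 95.8, 116 and 91 on NCD and at 82.1, 98.8 and 95.1 on SSD, a log2 fold change of -0.10. The diets overlapped in both genes, although for Gbp2 SSD-fed mice 1 and 3 were above all 4 controls. The log2 fold changes of Irf8, Ifit2, Oasl2 and Trim30a were 0.09, 0.08, 0.10 and 0.18, and that of Usp18 was -0.32. Ifi47 had a log2 fold change of -0.48 (adjusted p = 0.0128) and stayed within the fold limit. All SSD-fed Klrk1-/- mice were below all NCD-fed ones in 12 members and above them in none, 32.4% of the members, where 37.6% of all genes had diets that did not overlap (17.9% higher and 19.7% lower).

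Set side by side, the diet effects were below 0 in both genotypes for 14 members and above 0 in both for 10. For 12 members the log2 fold change was above 0 in WT and at or below 0 in Klrk1-/- mice, and for 1, Irf1, the reverse held. Of the 12767 genes tested in both genotypes, 37.5% were below 0 in both and 36.4% above 0 in both. Another 12.6% were above 0 in WT and not in Klrk1-/- mice, and 13.5% the reverse. Stat2 and Oasl1 were called lower in both genotypes. Of all genes tested, 7.32% were called lower in WT and 6.6% in Klrk1-/- mice. The share of all genes called lower in both is not given here.

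**Figure D4:**
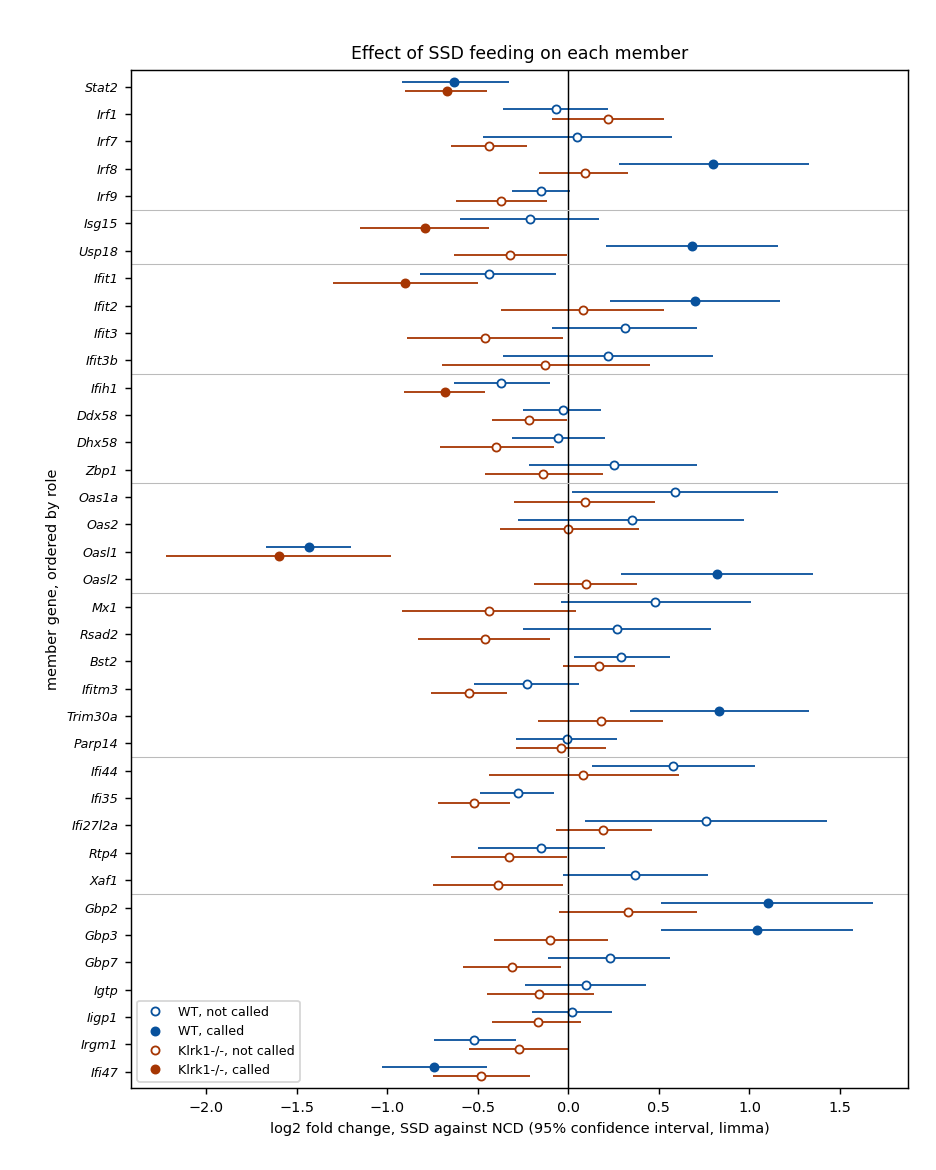
Log2 fold change of SSD against NCD (horizontal axis) with its 95% confidence interval from limma for each member (rows, by role), in WT mice (blue) and Klrk1-/- mice (orange). Filled points are called. Filled blue points lie on both sides of 0, and all 5 filled orange points lie below 0.

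An interaction term over all 16 mice then asked if genotype altered the diet effect. No member was called by limma, where 0.849% of all genes tested were (0.291% higher and 0.559% lower). At an unadjusted p under 0.05 there were 12 members (32.4%), where 17.3% of all genes passed. With edgeR 0 members and 0.666% of all genes were called. DESeq2 called 2 members, Gbp3 and Usp18, both lower, and 2.71% of all genes. Gbp3 had the lowest value, with the log2 diet effect in Klrk1-/- mice minus that in WT mice at -1.14 (95% interval -1.81 to -0.46, adjusted p = 0.0948 in limma). Usp18 came next (95% interval -1.62 to -0.39, adjusted p = 0.107). Leaving out SSD-fed WT mouse 5 gave a call for Gbp3 and leaving out SSD-fed WT mouse 3 a call for Usp18. The value was above 0 in 3 of 37 members, Irf1, Irgm1 and Ifi47, and in 50.1% of all genes. The median was -0.38 for the members and 0.00 for all genes, with -0.47 and -0.09 after scaling to the same total. Oasl1 and Stat2 had -0.16 (95% interval -0.83 to 0.51) and -0.05 (95% interval -0.45 to 0.35).

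Klrk1-/- and WT mice on SSD were then compared directly. These are the SSD-fed groups already used, so the values are not independent of the diet comparisons. No member was called by limma, where 2.13% of all genes tested were (0.709% higher and 1.42% lower). At an unadjusted p under 0.05 there were 16 members (43.2%), where 22.9% of all genes passed. EdgeR called 0 members and 1.75% of all genes. DESeq2 called 4 members, Gbp2, Gbp3, Irf8 and Usp18, all lower in Klrk1-/- mice, and 5.1% of all genes. With all 4 groups in 1 limma model, Gbp3, Oasl1 and Usp18 were called lower, with 4.22% of all genes. Scaling to the same total gave a call for Gbp3, with 2.46% of all genes. The log2 fold change was above 0 in 2 of 37 members, Stat2 at 0.01 and Irf1 at 0.42, and in 49.8% of all genes. The median was -0.38 for the members and -0.00 for all genes, with -0.49 and -0.12 after scaling to the same total.

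Gbp3 was lowest, at 301, 155, 187, 306 and 127 normalized counts in WT and 82.1, 98.8 and 95.1 in Klrk1-/- mice on SSD. No Klrk1-/- mouse reached the lowest WT mouse, and the log2 fold change was -1.13 (SE 0.28, adjusted p = 0.0609 in limma). Usp18 was at 138, 138 and 160 in SSD-fed Klrk1-/- mice, below the lowest WT mouse at 168, with a log2 fold change of -0.88 (SE 0.24, adjusted p = 0.0762). Without SSD-fed WT mouse 1 both were called, without mouse 3 only Usp18 was, and without mouse 5 only Gbp3 was. Irf8 was at 165, 158 and 160 in SSD-fed Klrk1-/- mice, with the lowest SSD-fed WT mouse at 177, and its log2 fold change was -0.68 (adjusted p = 0.142). Gbp2 was at -0.82 (adjusted p = 0.151) and Oasl1 at -0.85 (adjusted p = 0.128). Irf1, a factor induced mainly by interferon gamma, was at 1105, 1001 and 987 in Klrk1-/- mice, above all WT mice at 605 to 911 (adjusted p = 0.0929). The genotypes did not overlap in 8 members, 7 lower and 1 higher, 21.6% of the members and 17.9% of all genes (8.74% lower and 9.19% higher).

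Cell markers also differed between the SSD-fed genotypes. The macrophage marker Cd68 was at 531 to 1145 normalized counts in WT and 271 to 291 in Klrk1-/- mice (log2 fold change -1.36, adjusted p = 0.0135). Marco, a scavenger receptor of Kupffer cells, was at 133 to 515 and 35.1 to 65.7 (log2 fold change -2.45, adjusted p = 0.0138). Of the 5 Kupffer cell markers 1 was called, of the 8 monocyte and macrophage markers 1 was called, and all 13 had a log2 fold change below 0. Their part in the members' values was not tested.

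On NCD, 2 members were called between genotypes and both were lower in Klrk1-/- mice, 5.41% of the members where 5.79% of all genes were called (2.92% higher and 2.87% lower). Oasl1 was at 406, 416, 405 and 403 in WT and at 225, 261, 235 and 299 in Klrk1-/- mice. The genotypes were well apart, with a log2 fold change of -0.68 (SE 0.11, adjusted p = 0.00252). Ifi47 was at 796, 685, 768 and 775 in WT and at 438, 547, 413 and 509 in Klrk1-/- mice, again without overlap, and its log2 fold change was -0.67 (SE 0.11, adjusted p = 0.00266). Both calls held without any single mouse and under every alternative except the fold limit of 2, which neither reached. Irgm1, at 1480 ± 107 (SD, n = 4) in WT and 1010 ± 50.2 (SD, n = 4) in Klrk1-/- mice, passed the adjusted p (0.00248) and not the fold limit. Parp14 was in the same position, with a log2 fold change of -0.41 (adjusted p = 0.0393). Igtp, of the same GTPase family as Irgm1, was at -0.25 (adjusted p = 0.126). The median over the members was 0.05, with 24 of 37 above 0, and 0.00 over all genes, of which 50.3% were above 0. Among the cell markers on NCD, 1 of 5 of Kupffer cells was called lower and 0 were above 0. The Kupffer cell marker Marco was at 98.9 to 134 in WT and 40.6 to 83.3 in Klrk1-/- mice. Of 3 B cell markers 1 was called higher. The part of these cells in the members' values was not tested.

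**Figure D5:**
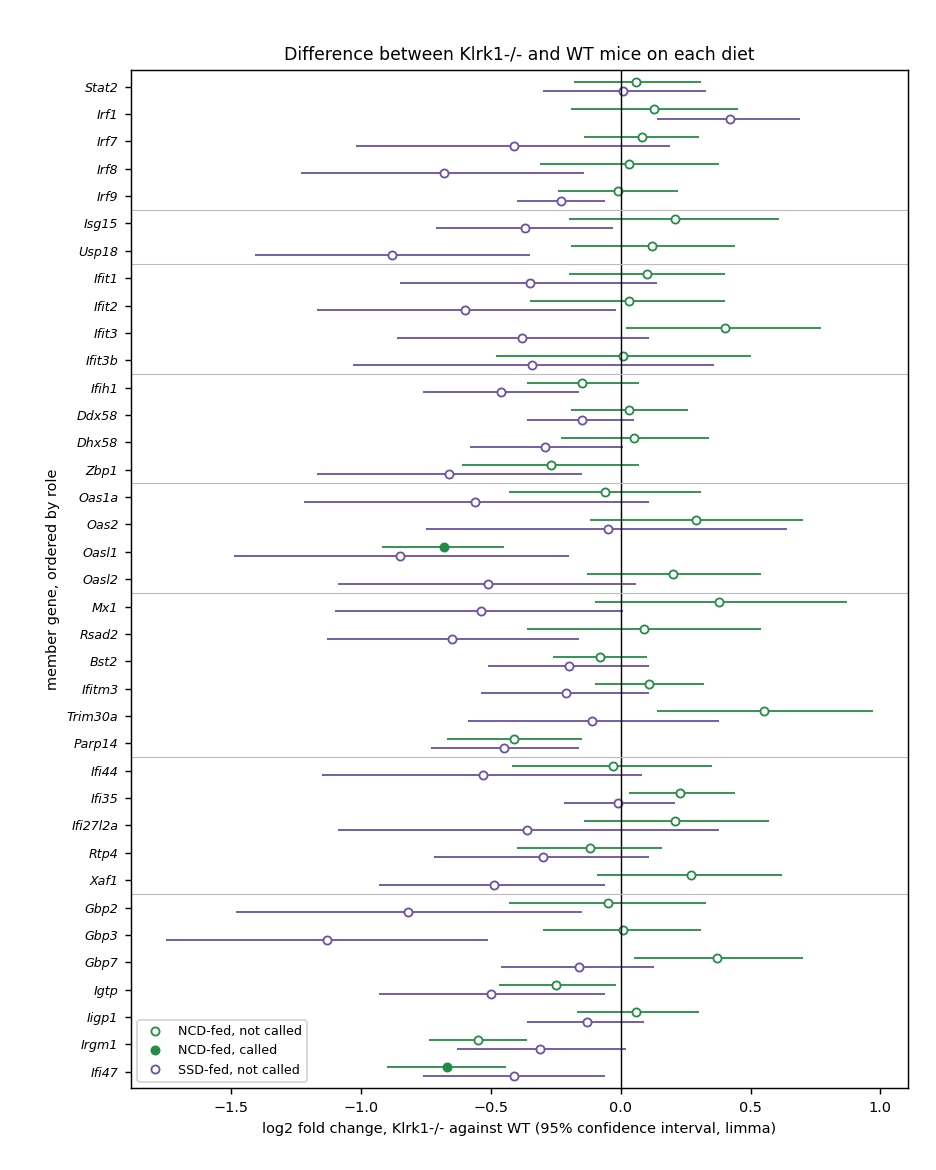
Log2 fold change of Klrk1-/- against WT mice (horizontal axis) with its 95% confidence interval from limma for each member (rows, by role), in NCD-fed mice (green) and SSD-fed mice (purple). Filled points are called, only Oasl1 and Ifi47 on NCD. The purple points are below 0 except for Stat2 and Irf1, and the green points lie on both sides of 0.

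Klrk1-/- NCD mouse 3 had the highest value of its group for 28 of 37 members (75.7%, with 31.8% of all genes). The members of this mouse were on average 0.22 above NCD-fed WT mice on the log2 scale, and those of the other 3 were between -0.08 and -0.02. Its Kupffer cell marker sum of 3264 was within the range of its group. By mean log2 level, its T and NK cell markers were at 0.79 (other 3 mice -0.10 to 0.14). Conventional dendritic cell markers were at 0.44 (others 0.10 to 0.20). Lower than in the others were monocyte and macrophage markers, at -0.34 (others -0.23 to -0.15), and stellate cell markers, at -0.26 (others 0.07 to 0.11). The T and NK cell sum of 188 was within its group (143 to 218). Several T and NK cell markers had low counts in this mouse, with Ncr1 at 4.97, Cd8a at 7.46, Gzma at 14.9 and Cd3e at 18.7. Cd4 was the highest of them at 95.8. The part of these cells was not tested.

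The genes upstream of the members were then examined from lists of their own. Of 21 interferon genes in the table, 18 had no read in any mouse, among them Ifnb1 and all listed Ifna genes. A count of 0 allows a level of up to 3 reads in that library, for counting error only, and reads shared by the near-identical Ifna copies may have been left out in counting. Ifng had at most 3 reads per mouse, with reads in 9 of 16 mice, and Ifnk and Ifnz had 1 read in 1 mouse each. The genes of the ligands were thus not detectable at this depth, apart from these few reads.

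Of the receptor chains, 3 of the 5 tested rose on SSD in WT mice, where 11.9% of all genes did. Ifngr1 was at 425, 411, 446 and 407 normalized counts on NCD and at 994, 574, 503, 674 and 607 on SSD, a log2 fold change of 0.63 (adjusted p = 0.0111). Ifngr2 was at 276, 266, 261 and 234 on NCD and at 580, 381, 331, 355 and 403 on SSD, also 0.63 (adjusted p = 0.0067). Il10rb, a chain shared by the receptors of interferon lambda and interleukin 10, rose by 0.99 (adjusted p = 0.00152). In Klrk1-/- mice Ifngr2 rose, from 203, 194, 188 and 191 to 349, 304 and 365 (log2 fold change 0.80, adjusted p = 0.000188), and Ifngr1 had 0.34 (adjusted p = 0.0354), within the fold limit. The type I receptor chains Ifnar1 and Ifnar2 were not called on either diet comparison, with log2 fold changes of -0.12 and 0.01 in WT and -0.02 and -0.03 in Klrk1-/- mice. Neither chain of the interferon gamma receptor was called in the interaction, with Ifngr1 at -0.28 (adjusted p = 0.519) and Ifngr2 at 0.17 (adjusted p = 0.688).

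Of 12 upstream sensing genes tested, the receptors Tlr4 and Tlr7 rose on SSD in WT mice by 1.04 (adjusted p = 0.00772) and 0.89 (adjusted p = 0.0346) on the log2 scale, and the adaptor Mavs fell by 0.69 (adjusted p = 0.00219). That is 3 of 12, near the 19.3% of all genes called in this comparison. In Klrk1-/- mice the kinase Ikbke fell by 0.75 (adjusted p = 0.00181) and the transcription factor Irf5 by 0.82 (adjusted p = 0.00134), 2 of 12 where 6.6% of all genes fell. In WT mice both were at -0.52 and not called (adjusted p = 0.00713 and 0.0684). None of the 7 genes on a separate list of inhibitors of the signal was called in any comparison. Usp18, which also blocks the signal and rose in WT mice, is counted with the members.

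A longer list of other interferon-induced genes (55 in the table) was examined in the same way. In WT mice 19 of the 54 tested rose on SSD and 3 fell, where 11.9% of all genes rose and 7.32% fell, and their median log2 fold change was 0.48. Among those that rose were the chemokines Cxcl10 (1.25, adjusted p = 0.00205) and Cxcl9 (0.94, adjusted p = 0.00398), which attract T cells, the GTPase Gbp6 (1.37, adjusted p = 2.97e-05) and Oas3 (1.29, adjusted p = 0.00445). Mx2, Cxcl11 and Gm4951 fell. In Klrk1-/- mice, 2 of 53 rose on SSD, Oas3 (0.88, adjusted p = 0.00794) and Tor3a (0.90, adjusted p = 0.00498), and Mx2 and Cxcl11 fell, where 6.54% of all genes rose and 6.6% fell. On SSD, Cxcl10 was at 264, 185, 168, 181 and 114 in WT and at 56, 81.9 and 87.4 in Klrk1-/- mice. It was lower in Klrk1-/- mice by a log2 fold change of -1.25 (adjusted p = 0.0293), and Gbp6 (-0.79, adjusted p = 0.0476) and Lgals3bp (-0.67, adjusted p = 0.0174) were called lower as well, 3 of 54 where 1.42% of all genes were. Ifi207 and Gbp10 were called in the interaction, at -1.30 (adjusted p = 0.0407) and -1.12 (adjusted p = 0.045).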

How the data were processed

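Liver RNA of 16 mice, 1 library each, was compared in 4 groups. The deposited values are a signal, namely normalized counts that the authors made with FastQC, STAR on GRCm39, FeatureCounts with GENCODE M26 and DESeq2. The method of the factors is not given in the sources used here, and the methods and the labels name different kits. Values were whole multiples of 1 read per mouse within 0.01 reads (100%), so reads could be recovered. The deposited feature length gave levels per kilobase. The authors' own comparisons were not used.

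Differences were tested with limma 3.58.1 in R 4.3.3 (trend, pseudocount 1, only the groups compared, genes with a mean of at least 10), and the interaction over all 4 groups. EdgeR 4.0.16 and DESeq2 1.42.0 on recovered reads, other pseudocounts, minimum means, scalings and fold limits, a replicate block and leaving out each mouse were alternatives. Two-sided exact permutation tests of a single member cannot go below 0.0159 (SSD against NCD, WT), 0.0571 (Klrk1-/-), 0.0357 (genotypes on SSD) and 0.0286 (genotypes on NCD).

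Tested on simulated counts with 2-fold changes, limma recovered 72% for the diets in WT (13017 genes), 86.9% in Klrk1-/- mice (12836 genes), 85.7% between genotypes on SSD (13035 genes), 84% on NCD (12768 genes) and 63% for the interaction (13001 genes). The unchanged genes called numbered 9, 9, 5, 11 and 7 in the same order. The changed genes were drawn at random from all genes tested, so these shares need not hold for the members. In SSD-fed WT mice the median coefficient of variation was 24% for the members and 12.9% for all genes. The members and lists were chosen with earlier results of these data known. Values in every mouse are given for members called in a comparison, other members by range and count, and of the other lists the called and defining genes are named. Members in the text beyond that rule were chosen after their values were seen. A result on 1 signalling gene is not reported here.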

Additional observations from a re-analysis of the deposited data

Results flagged for a closer look

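Among the 111 groups of 4 or 5 mice examined (each member in each such group), 7 (6.31%) held a mouse far from the others by Dixon's test, where chance gives about 1 in 20. In SSD-fed WT mouse 4, Irf7 was at 1998 normalized counts with 731 to 1006 in the other 4 mice. The same mouse had Bst2 at 7142 (others 4676 to 5160) and Ifitm3 at 15744 (others 9861 to 10794). In SSD-fed WT mouse 5, Rtp4 was low at 200 (others 321 to 367). In NCD-fed WT mouse 2, Ifitm3 was low at 11920 (others 13597 to 13851). Ifit2 was low at 44.8 in NCD-fed Klrk1-/- mouse 2 (others 60.3 to 63.4), and Zbp1 was high at 160 in NCD-fed Klrk1-/- mouse 3 (others 121 to 123).

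The diet effect differed between genotypes in limma's interaction for 3 genes of the accompanying lists, none of them a member. The log2 effect in Klrk1-/- mice minus that in WT mice was -1.57 for the macrophage marker Cd68 (adjusted p = 0.0107), -1.30 for Ifi207 (adjusted p = 0.0407) and -1.12 for Gbp10 (adjusted p = 0.045).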

How the results depend on the processing

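For SSD against NCD in WT mice, 10 members were called, 16 with the same total per mouse (15 higher, 1 lower), 5 with a replicate block and 3 at a fold limit of 2. Leaving out 1 mouse gave 6 to 13, the lowest without NCD-fed mouse 1. In Klrk1-/- mice 5 were called, 3 with the same total, 10 with no fold limit and 1 at a fold limit of 2. Between genotypes on SSD, the count of 0 became 4 with DESeq2, 3 with all 4 groups in 1 model, 3 with the replicate block, 1 with the same total and 0 to 2 without 1 mouse. On NCD, 2 became 4 with the replicate block, 4 with no fold limit, 0 at a fold limit of 2 and 2 to 4 without 1 mouse, the highest without NCD-fed WT mouse 5. The interaction gave 0, with DESeq2 2 and without 1 mouse 0 to 1. The cause of these shifts was not tested, apart from the fold limits, which act by construction. The other alternatives left each count within 1.5 times, and no called member changed sign. Shares of all genes called with the replicate block, the other fold limits and 1 mouse left out are not given here. Those counts therefore do not tell a shift of the members from one over all genes.

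The replicate block uses mouse numbers, and the labels do not say if same-numbered mice are paired. The mean correlation of same-numbered mice was -0.076 and 0.0731 for the diets in WT and Klrk1-/- mice. It was 0.000917 between genotypes on NCD and 0.121 on SSD. For mice of different numbers it was 0.0181, -0.0243, -0.000521 and -0.0306 in the same order. With 3 or 4 same-numbered pairs per comparison, these values cannot settle if the mice are paired. With the block, of the 7 rises in WT mice Gbp2 and Gbp3 stayed called and Irf8, Usp18, Ifit2, Oasl2 and Trim30a did not, and the 3 falls stayed. The diets in Klrk1-/- mice gave 7 calls and the interaction 0. The fewest reads of any member in 1 mouse were 23, which sets the depth behind the lowest values.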
